A study of Mus musculus with 50 samples.

Results

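The spleen of BALB/c mice 72 h after an injection of CpG oligodeoxynucleotides (ODN) was compared with the spleen of untreated BALB/c mice, in order to describe which transcripts remained changed 3 days after the stimulus. The comparison used the 4 arrays titled as CpG ODN at 72 h and the 6 titled as untreated, which are 10 of the 50 arrays of the series, and all 15264 named genes measured on over 70% of the 34 BALB/c arrays. All mice in these groups were female wild-type BALB/c, with no age given. The treated mice received 400 µg of an equimolar mixture of CpG ODN 1555 and 1466 by the intraperitoneal route and the untreated mice received nothing. Further groups used beside this comparison are CpG ODN at 24 h (n = 4 arrays, same mixture and dose) and control ODN 1612 and 1471 at 3 h (n = 4 arrays, 400 µg). Each array set Cy5-labelled RNA of a whole spleen against a Cy3-labelled Universal Mouse Reference RNA, a pool whose sources include B and T lymphocytes, macrophages and several organs, and each value is the log2 ratio of spleen over that pool.

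Unmethylated CG dinucleotides in a suitable sequence are recognised inside endosomes by Toll-like receptor 9 (TLR9), which is expressed in B cells, plasmacytoid dendritic cells and, in the mouse, other myeloid cells. The receptor signals through MyD88 to NF-kB, which induces cytokine genes within hours, and through interferon regulatory factors, which induce type I interferon. Interferons then act back on most spleen cells, and natural killer cells and T cells exposed to interleukin 12 add interferon-gamma. The injected sequences are shown because they define the treatment, each 5′ to 3′ with its CG dinucleotides in capitals.
CpG ODN 1555: gctagaCGttagCGt
CpG ODN 1466: tcaaCGttga
control ODN 1612: gctagatgttagCGt
control ODN 1471: tcaagcttga
ODN 1555 holds 2 CG dinucleotides in 15 bases and ODN 1466 holds 1 in 10 bases. As listed, control ODN 1612 keeps 1 CG and control ODN 1471 has none.

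Between 28818 and 30555 probes had values on each of these 10 arrays, so that precision depends on how many arrays each group has. Transcripts that mark a spleen stood above the reference pool on every one of the 10 arrays, with Cd79b, a subunit of the B cell receptor, between 2.26 and 3.66 and Spic, a transcription factor of red pulp macrophages, between 4.02 and 5.82. The 72 h arrays were not alike among themselves. Replicates 1 and 2 correlated at r = 0.977 across the 12869 named genes with a value on all 34 BALB/c arrays. The other pairs of 72 h arrays correlated at 0.871 to 0.918. Across all probes, named or not, replicate 3 had a median correlation of 0.850 with its group, against 0.901 for the others. Among the 969 genes called higher with all 4 values, replicate 4 was the 72 h array nearest to the untreated level in 640 and replicate 3 the farthest in 614. The labels describe 4 independent experiments per time point but do not say whether untreated arrays came from separate days, so p-values rest on array-to-array spread that may be partly technical. The 72 h arrays and the control ODN arrays form a run of adjoining array numbers in the titles. The untreated arrays and the 24 h arrays lie in other runs, so that run and group cannot be told apart in either comparison. Averaged over 15 pancreas genes, the log2 ratio lay between 0.16 and 3.59 on the 72 h arrays and between 0.56 and 5.30 on the untreated arrays, and none of 24 pancreas genes passed the test at 72 h.

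In all, 1616 of 15264 genes (10.6%) differed between CpG 72 h and untreated spleen at an adjusted p under 0.05, 982 higher (6.43%) and 634 lower (4.15%). Each log2 difference is given ± its limma standard error, and adjusted p follows Benjamini and Hochberg across every gene tested in that comparison. Only 331 of the called genes changed at least 2-fold, and these were mostly rises, with 262 higher (1.72%) and 69 lower (0.452%). The median difference over all genes was 0.03. The count depended on single arrays, with 678 genes called without 72 h replicate 3, 724 without replicate 2, 933 without replicate 1, 1062 without untreated replicate 5 and 2546 without 72 h replicate 4. With array weights 5667 genes passed. With quantile normalization 979 genes were higher and 970 lower, so the share of rises among the calls went from 60.8% to 50.2%. With the closely alike 72 h replicates 1 and 2 averaged into 1 array, and untreated replicates 3 and 4 likewise, 555 genes passed.

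**Figure D1:**
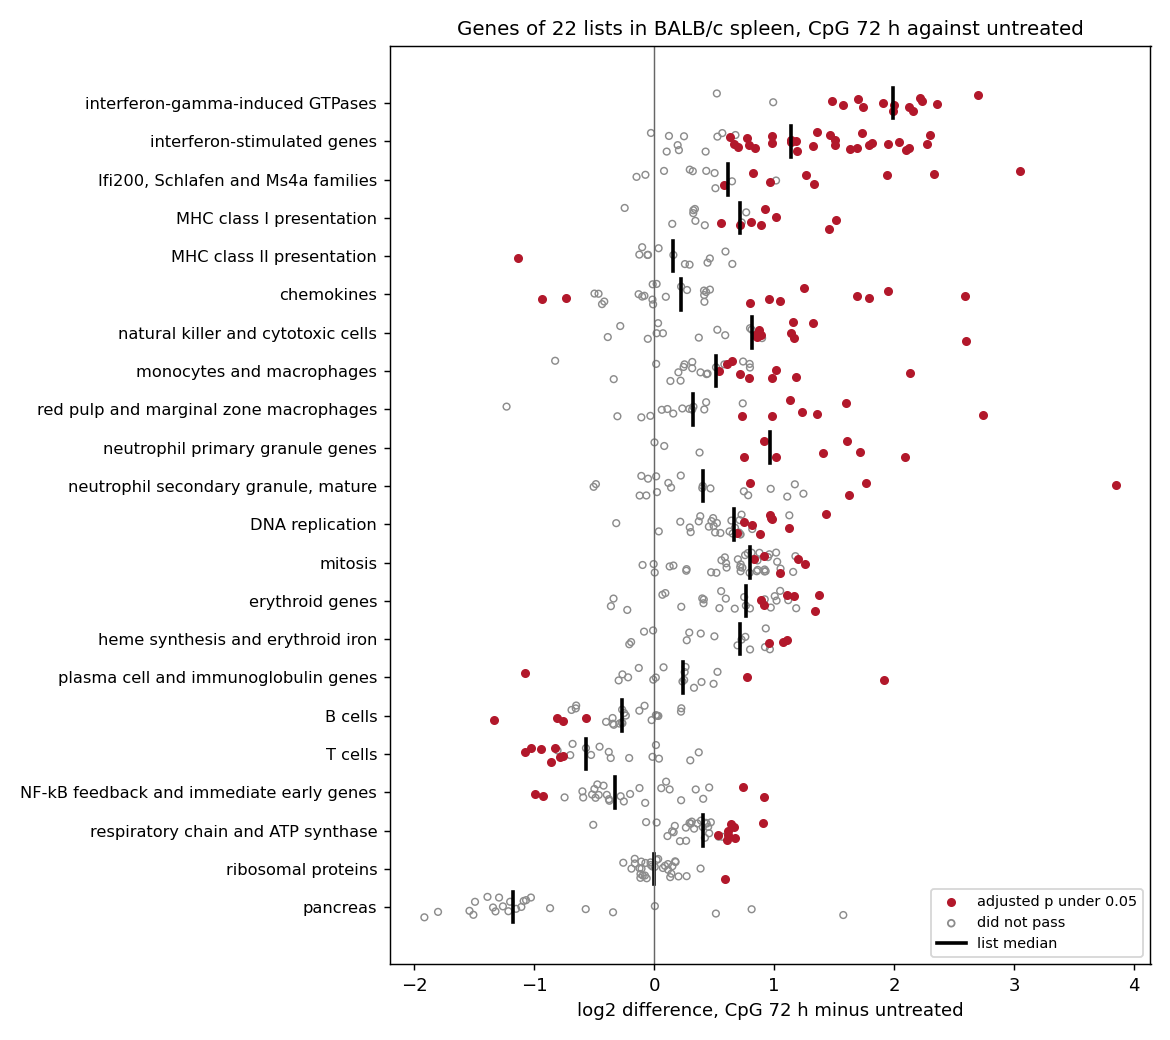
Log2 difference between CpG 72 h and untreated spleen (horizontal axis) for every tested gene of 22 lists (rows), with filled points for genes at an adjusted p under 0.05, open points for the others and a bar at the list median. The interferon-gamma-induced GTPases have the highest median, 1.99, and the T cell list has a median of -0.57.

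The highest list median was that of the interferon-gamma-induced GTPases, guanylate-binding proteins (Gbp) and immunity-related GTPases (Irg) that attack the vacuoles of intracellular microbes. Of 15 measured members 13 were higher at 72 h and none lower, against 6.43% of all genes higher, and the median of the list was 1.99 against 0.03 over all genes. The 2 that did not pass were Gbp5 and Tgtp1. Without any one of the 10 arrays 13 or 14 members passed.

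Gbp2, a guanylate-binding protein recruited to pathogen vacuoles, had log2 ratios of 4.10, 3.40, 5.03 and 3.37 on the 4 arrays of 72 h, whereas the 6 untreated arrays ran from 1.07 to 1.46 with a median of 1.29. Every 72 h array therefore lay above every untreated array, and the difference of 2.70 ± 0.25 was 6.48-fold (adjusted p = 6.4e-09). Gbp2b, known earlier as Gbp1 and not among the 15, read 5.68, 5.00, 6.48 and 4.66 against 1.98 to 2.24 in untreated spleen (median 2.07), a 10.3-fold difference (3.37 ± 0.26, adjusted p = 1e-10). On both genes replicate 3 was the highest and replicate 4 the lowest of the 72 h arrays. Gbp3, Gbp4 and Gbp6 were higher by 2.15 ± 0.19, 2.00 ± 0.18 and 2.36 ± 0.21 (adjusted p = 5.7e-09, 6.2e-09 and 6.3e-09). Among the immunity-related GTPases, Igtp stood at 4.55, 4.36, 4.58 and 3.68 against 1.75 to 2.24 (median 2.15), a difference of 2.23 ± 0.21 (adjusted p = 6.4e-09). Irgm1, which regulates the other GTPases of the family, stood at 3.43, 3.12, 3.51 and 2.29 against 0.95 to 1.30 (median 1.10), a difference of 1.99 ± 0.18 (adjusted p = 6.2e-09). Neither gene overlapped between the groups, although replicate 4 was the lowest of the 72 h arrays on both. Irgm2 read 4.06, 3.85 and 4.08 on replicates 1 to 3 and 2.16 on replicate 4, which lay far from the other arrays but above the untreated maximum of 1.79 (2.12 ± 0.28, adjusted p = 3.5e-06). Iigp1 was higher by 2.22 ± 0.23 (adjusted p = 4.5e-08), with another probe at 3.88 ± 0.36 (adjusted p = 9.2e-09), and the very large GTPase gene Gvin1 by 1.70 ± 0.18 (adjusted p = 9.1e-08). Members of these families are close in sequence, and whether a probe also detected a relative was not tested.

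Interferon-activated transcription factors bind a short element in the promoters of their target genes, and 28 bases around a match to its letters are shown for 6 genes that rose. The letters GAAA, any 2 bases and GAAA again, a core of the interferon-stimulated response element, were searched on both strands of the 250 bases before and 50 bases after each RefSeq gene start (GRCm38.p6), and capitals mark the match on either strand, with overlapping matches joined.
Gbp2, chr3:142620595-142620622 (+): ctcttttagTTTCACTTTCactgtctta
Igtp, chr11:58199513-58199540 (+): ctaggaactGAAACTGAAAgctgttcgg
Irgm2, chr11:58214904-58214931 (+): ccaggaactGAAACTGAAAgctgttcgg
Irgm1, chr11:48871429-48871456 (-): tttcaaGAAATAGAAACCGAAActgatt
Ifit1, chr19:34640776-34640803 (+): aggcttcagTTTCACTTTCcagtctcag
Apol10a, chr15:77476987-77477014 (+): aaatttttcTTTCACTTTCatgcattgg
The match shown ended 49 bases before the gene start in Gbp2, 24 in Igtp, 54 in Irgm2, 14 in Irgm1, 94 in Ifit1 and 41 in Apol10a. The stretches of Igtp and Irgm2 were identical at 27 of 28 positions. Ifit1 held a further match ending 75 bases before its start, and Cxcl10 a match ending 203 bases before its start. Of the 15 tested GTPases 9 had a promoter window, and 8 of these held the motif, as did 14 of 29 interferon-stimulated genes with a window. No match was found in the 250 bases before the start of Oasl2, Cxcl9, Ubd, Tap1 and Psmb9, which rose as well. The 50 bases after the start enter the shares given here but were left out for these single genes. Over all 32851 windows the share was 3.44%, and of the 12120 tested genes with a window 467 (3.85%) held it. It was 7.27% of the 798 genes called higher that had a window and 2.82% of the 496 called lower. A second pattern, TTC, any 3 bases and GAA, was searched in the same windows. This pattern was found in 5 of the 9 GTPases, 6 of the 29 interferon-stimulated genes and 8.77% of the tested genes. Its shares were 11.4% of the genes called higher and 10.1% of those called lower. A match is a description of the letters and not a tested site, and a gene with several starts was counted when any window matched.

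Interferon-stimulated genes, the effectors and sensors of antiviral defence, were also raised at 72 h. Of 38 measured genes 28 were higher and none lower, with a median of 1.14, and leaving out 1 array gave 23 to 29. Oasl2, a member of the oligoadenylate synthetase family, had values of 2.50, 2.44, 2.41 and 1.94 against -0.28 to 0.33 in untreated spleen (median 0.06), 4.83-fold higher (2.27 ± 0.19, adjusted p = 1.7e-09). Ifit1, which binds viral RNA lacking a methylated cap, stood at 2.99, 2.94, 3.20 and 2.72 against 0.31 to 0.87 (median 0.72), 4.93-fold higher (2.30 ± 0.25, adjusted p = 7e-08). The 72 h arrays of Oasl2 and Ifit1 lay within a narrow band, all above the untreated arrays. Isg15, a ubiquitin-like modifier named here after its values were seen, rose by 1.82 ± 0.26 (adjusted p = 1.9e-05) and Usp18, the protease that removes it, by 2.04 ± 0.25 (adjusted p = 6.8e-07). Ifih1, the cytosolic sensor of long double-stranded RNA, rose by 1.51 ± 0.15 (adjusted p = 2.9e-08) and Parp12, an antiviral ADP-ribosyltransferase, by 2.13 ± 0.21 (adjusted p = 1.1e-08). In the Ifi200, Schlafen and Ms4a families 8 of 18 genes were higher and none lower, against 6.43% of all genes higher. Ms4a6d, a membrane protein of macrophages, read 4.62, 4.54, 5.45 and 4.01 against 1.18 to 2.02 (median 1.67), 8.28-fold higher with no overlap (3.05 ± 0.22, adjusted p = 6e-11). Ifi204, a nuclear DNA sensor, rose by 2.34 ± 0.24 and Ms4a4d by 1.34 ± 0.28 (adjusted p = 2.9e-08 and 0.0025). The count of 8 for these families was 5 without untreated replicate 5 or 6 or without 72 h replicate 1 or 2.

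**Figure D2:**
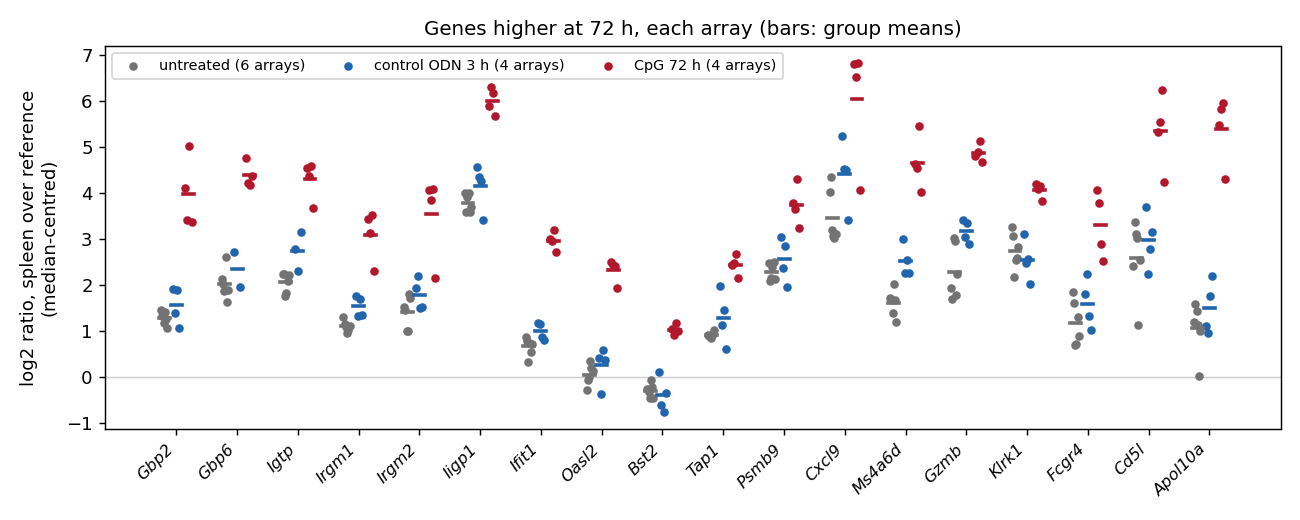
Log2 ratio of spleen over reference (vertical axis, median-centred) of 18 genes higher at 72 h, for the 6 untreated, 4 control ODN 3 h and 4 CpG 72 h arrays, with bars at the group means. For Gbp2, Ifit1, Ms4a6d, Gzmb and Apol10a each 72 h array lies above each untreated array, and for Cxcl9 and Irgm2 replicate 4 stands well below the other 72 h arrays.

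Interferon-stimulated genes were lower at 72 h than at 24 h in 9 of 38 cases and higher in none, while none of the 15 GTPases passed between the times, or 5 higher without 72 h replicate 4. Over all genes 508 of 15264 (3.33%) differed between 72 h and 24 h, 345 higher (2.26%) and 163 lower (1.07%). Both comparisons use the 72 h arrays. The median of the interferon-stimulated genes in the 72 h minus 24 h comparison was -0.24 and that of the GTPases 0.30, against -0.04 over all genes. Ifit3, chosen after its values were seen, had group means of 0.73 ± 0.45 (SD, n = 6) in untreated spleen, 5.12 ± 0.06 at 3 h, 4.72 ± 0.30 at 9 h, 4.00 ± 0.52 at 24 h and 2.46 ± 0.42 at 72 h (n = 4 each). Its arrays at 72 h lay between 1.86 and 2.85, above the untreated maximum of 1.36 and below the lowest 24 h array at 3.25. The difference from 24 h was -1.53 ± 0.33 (adjusted p = 0.0069) and that from untreated 1.74 ± 0.30 (adjusted p = 0.0003). Phf11d fell from 2.49 ± 0.26 at 24 h to 1.43 ± 0.39 at 72 h (difference -1.05 ± 0.20, adjusted p = 0.0029), still 1.95 ± 0.18 above untreated spleen (adjusted p = 6.7e-09). Bst2, known as tetherin and a marker of plasmacytoid dendritic cells, fell from 1.88 ± 0.15 to 1.02 ± 0.11 (difference -0.85 ± 0.19, adjusted p = 0.0077), 1.33 ± 0.17 above untreated (adjusted p = 2.5e-06). All of Ifit3, Phf11d and Bst2 passed in both comparisons with each array left out in turn (largest adjusted p = 0.0375). The count of 508 was 202 without 24 h replicate 3, 206 without 72 h replicate 2, 265 without 24 h replicate 1, 289 without 72 h replicate 3 and 314 without 72 h replicate 1.

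The largest rise among the genes named was that of Apol10a, an apolipoprotein L gene. Its values at 72 h were 5.47, 5.83, 5.96 and 4.29, whereas untreated arrays ran from 0.02 to 1.58 (median 1.16) and the 24 h arrays read 0.53, 1.61, 0.04 and 0.35. No array of either other group reached the lowest 72 h array, and the difference was 20.1-fold against untreated spleen (4.33 ± 0.44, adjusted p = 4.1e-08) and 4.76 ± 0.49 against 24 h (adjusted p = 6.6e-07). Group means at 0.5, 1, 3 and 9 h lay between 1.32 and 1.97. Ubd, which encodes the ubiquitin-like modifier FAT10, read 6.64, 5.58, 5.37 and 4.19 at 72 h, 2.12 to 3.71 in untreated spleen (median 3.19) and 3.85, 2.53, 1.80 and 3.78 at 24 h. Its 72 h arrays lay above both groups, 2.48 ± 0.45 above untreated spleen (adjusted p = 0.00042) and 2.46 ± 0.49 above 24 h (adjusted p = 0.0038). The mean of Ubd at 1 h, 4.42 ± 0.32 (SD, n = 4), lay between those levels.

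**Figure D3:**
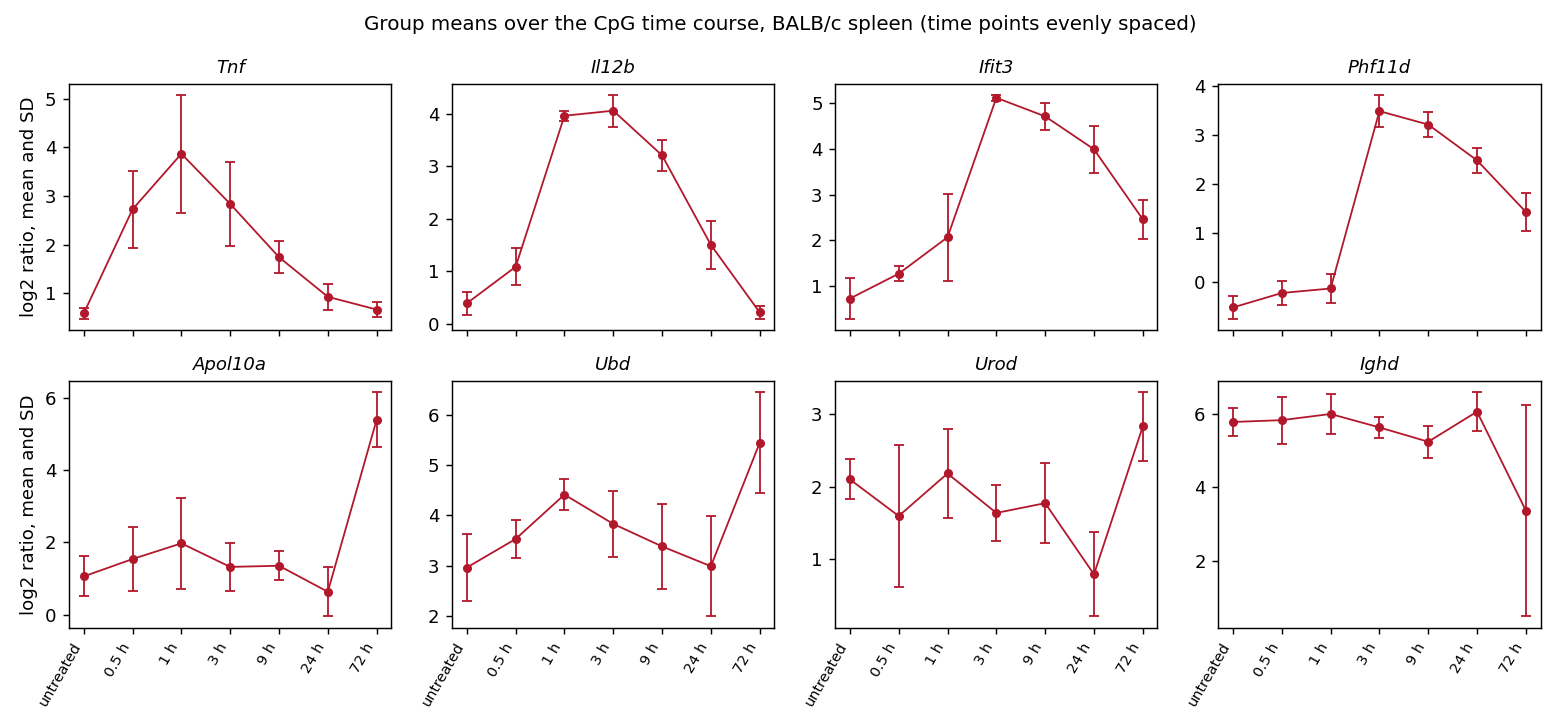
Group means and SD of the log2 ratio (vertical axis) of 8 genes in untreated BALB/c spleen (n = 6) and at 6 times after CpG ODN (n = 2 to 4 arrays with a value), with times evenly spaced. Tnf and Il12b at 72 h lie at the untreated level, Ifit3 and Phf11d lie between the 24 h and the untreated level, Apol10a and Ubd peak at 72 h, and the SD of Ighd at 72 h is 2.89.

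Genes that load peptides onto MHC class I molecules were higher at 72 h in 8 of 17 cases with none lower (median 0.71). Tap1, a subunit of the peptide transporter, read 2.44, 2.46, 2.68 and 2.15 against 0.84 to 1.03 in untreated spleen (median 0.90), 2.86-fold higher (1.52 ± 0.26, adjusted p = 0.00029). Psmb9, a catalytic subunit of the immunoproteasome, read 3.78, 3.66, 4.30 and 3.23 against 2.08 to 2.49 (median 2.27), 2.75-fold higher (1.46 ± 0.24, adjusted p = 0.00014). Neither gene overlapped between the groups, and replicate 3 was the highest on both. Psmb8, a second immunoproteasome subunit, rose by 0.92 ± 0.21 and Erap1, the aminopeptidase that trims peptides, by 0.89 ± 0.15 (adjusted p = 0.0051 and 0.00016). Among genes of MHC class II presentation none of 13 was higher and 1 was lower (median 0.16), against 6.43% and 4.15% of all genes. The lower one was H2-Ob, a B cell inhibitor of peptide loading, at 2.39, 2.09, 1.55 and 2.51 against 2.54 to 3.78 (-1.13 ± 0.29, adjusted p = 0.012). Without 72 h replicate 3 that difference was -0.94 (adjusted p = 0.0757).

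Among chemokines 8 of 29 were higher and 2 lower (median 0.23), against 6.43% and 4.15% of all genes. Cxcl9, an interferon-gamma-induced ligand of CXCR3, stood at 6.80, 6.52 and 6.82 on replicates 1 to 3 of 72 h and at 4.07 on replicate 4, against 3.01 to 4.35 in untreated spleen (median 3.16). Replicate 4 thus overlapped the untreated range while the others lay far above it (2.59 ± 0.42, 6.02-fold, adjusted p = 0.00011). Cxcl10, another ligand of CXCR3, read 4.20, 3.30, 4.20 and 2.61 against 1.60 to 2.06 (median 1.96), with no overlap (1.69 ± 0.28, adjusted p = 0.00019). Xcl1, a chemokine secreted by natural killer and T cells that attracts cross-presenting dendritic cells, was higher by 1.95 ± 0.35, and Ccl12, a monocyte attractant, by 1.79 ± 0.36 (adjusted p = 0.00035 and 0.0014). Ccl4 was higher by 1.05 ± 0.25 (adjusted p = 0.0075). Cxcl12, which stromal cells make to retain leukocytes, was lower, at -0.07, -0.21, -0.29 and -0.35 against 0.25 to 1.10 (median 0.74), a difference of -0.93 ± 0.22 with no overlap (adjusted p = 0.0058). Without 72 h replicate 1 the count of 8 was 5, and the 2 lower calls were 4 without 72 h replicate 4 and 1 without any other 72 h array or untreated replicate 2, 3, 4 or 5. Il18, a cytokine that elicits interferon-gamma, stood at 4.34, 4.17, 4.87 and 3.42 against 2.67 to 3.26 (median 2.86; 1.31 ± 0.22, adjusted p = 0.00018). Its soluble antagonist Il18bp averaged 2.08 at 72 h against 0.10 to 0.80 (median 0.63; 1.55 ± 0.23, adjusted p = 2.8e-05). Neither overlapped between groups, but further probes of Il18bp gave 0.45 ± 0.41 and 0.63 ± 0.16 (adjusted p = 0.51 and 0.01).

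Transcripts of natural killer and cytotoxic cells were higher in 9 of 21 cases, none lower, with a median of 0.81. The share of all genes higher was 6.43%. In a whole spleen a larger number of such cells and more RNA per cell cannot be told apart, and the same holds for fewer cells and less RNA in the lists that fell. Gzmb, the granzyme that triggers death of target cells, stood at 4.79, 4.89, 5.13 and 4.68 against 1.70 to 3.01 in untreated spleen (median 2.08). The 72 h arrays lay close together and well above all untreated arrays, 6.08-fold on average (2.60 ± 0.31, adjusted p = 5.3e-07). Klrk1, which encodes the activating receptor NKG2D, read 4.19, 4.09, 4.15 and 3.83 against 2.17 to 3.26 (median 2.71; 1.33 ± 0.23, adjusted p = 0.00026), with another probe at 0.36 ± 0.13 (adjusted p = 0.084). Klra3, an inhibitory Ly49 receptor, read 2.47, 2.39, 2.25 and 1.60 against 0.68 to 1.37 (median 1.06; 1.16 ± 0.17, adjusted p = 1.6e-05). Leaving out 1 array gave 6 to 11 members of the list.

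Monocyte and macrophage genes were higher in 9 of 27 cases, none lower (median 0.52), against 6.43% of all genes higher. Genes of red pulp and marginal zone macrophages were higher in 7 of 21, none lower (median 0.33). Fcgr4, the activating Fc receptor for IgG2 subclasses, read 4.06, 3.79, 2.88 and 2.51 against 0.69 to 1.85 (median 1.09), 4.40-fold higher with no overlap (2.14 ± 0.30, adjusted p = 8.6e-06). Its signalling subunit Fcer1g stood at 2.68, 2.72, 2.75 and 2.26 against 1.10 to 1.68 (median 1.47; 1.18 ± 0.18, adjusted p = 4.5e-05). Both thus lay above the untreated range on every 72 h array. Cd5l, a secreted survival factor of tissue macrophages, read 5.33, 5.54, 6.24 and 4.24 against 1.13 to 3.37 (median 2.78), 6.69-fold higher (2.74 ± 0.44, adjusted p = 0.00011). Spic was higher by 0.98 ± 0.24 (adjusted p = 0.0082), or 0.0673 with the closest pairs of arrays averaged and 0.0571 with quantile normalization. Siglec1, the sialoadhesin of marginal metallophilic macrophages, stood at 5.25, 5.31, 6.22 and 3.74 against 3.73 to 4.37 (1.14 ± 0.31, adjusted p = 0.018), so replicate 4 lay at the bottom of the untreated range. Its adjusted p was 0.0522, 0.0627 and 0.142 without 72 h replicates 1, 2 and 3. Ly6c1, a surface protein of monocytes, T cells and endothelium, read 3.69, 3.71, 4.23 and 3.26 against 1.18 to 2.61 (median 1.71; 1.92 ± 0.24, adjusted p = 1.1e-06). The count of 9 monocyte and macrophage genes was 5 without 72 h replicate 1, 2 or 3.

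Complement genes were higher in 5 of 18 cases and lower in 1 (median 0.40), against 6.43% and 4.15% of all genes. Cfb, factor B of the alternative pathway, stood at 6.53, 6.23, 5.89 and 5.30 against 4.26 to 4.88 (median 4.65; 1.39 ± 0.21, adjusted p = 3.4e-05). C1qc, a chain of C1q made by macrophages, read 6.15, 6.00, 6.45 and 5.02 against 4.10 to 5.13 (median 4.56; 1.36 ± 0.24, adjusted p = 0.00042). Cfb did not overlap between the groups, whereas replicate 4 of C1qc lay inside the untreated range. C6, a component of the membrane attack complex that red pulp macrophages express, read 4.26, 4.33, 4.08 and 3.20 against 1.73 to 3.12 (median 2.30), 1.60 ± 0.28 higher (adjusted p = 0.00029), with another probe at 0.66 ± 0.38 (adjusted p = 0.28). C6 was also 2.31 ± 0.31 higher than at 24 h, where its arrays read 1.42, 1.89, 1.51 and 1.79 (adjusted p = 4.3e-05). Without 72 h replicate 2 the count of 5 was 3.

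Of 29 genes of the Toll-like receptor pathway 3 were higher and 1 lower (median 0.13), near the shares over all genes of 6.43% and 4.15%. Tlr9, the receptor of CpG ODN and named here after its values were seen, read 0.14, 0.12, -0.03 and 0.30 against 0.13 to 0.55 (median 0.21). The groups overlapped, and the difference of -0.13 ± 0.14 (95% interval -0.42 to 0.17) did not pass (adjusted p = 0.59), with another probe at 0.54 ± 0.36 (adjusted p = 0.34). The 3 higher genes encode other endosomal receptors of RNA, Tlr7 (0.92 ± 0.23, adjusted p = 0.01), Tlr8 (0.83 ± 0.24, adjusted p = 0.024) and Tlr13 (1.16 ± 0.31, adjusted p = 0.016). The lower one was Traf6, a ubiquitin ligase of the pathway (-0.82 ± 0.21, adjusted p = 0.011), of which another probe gave -0.10 ± 0.18 (adjusted p = 0.75). Tlr7 and Traf6 had adjusted p-values of 0.0733 and 0.0857 without 72 h replicate 3. Tlr13 did not pass without 72 h replicate 1, 2 or 3 (largest adjusted p = 0.0715), nor Tlr8 without 72 h replicate 1 or 2 or untreated replicate 4 or 6 (largest adjusted p = 0.125). The count of 3 was 1 without 72 h replicate 1, 2 or 3 and 8 without replicate 4.

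Genes of neutrophil primary granules, which are transcribed in promyelocytes rather than in mature neutrophils, were higher in 7 of 10 cases with none lower (median 0.97). Ctsg, cathepsin G, read 3.17, 3.67, 3.41 and 1.59 against 0.48 to 1.31 (median 0.84), 4.26-fold higher (2.09 ± 0.36, adjusted p = 0.00022). Prtn3, proteinase 3, read 2.99, 2.84, 2.70 and 1.87 against 0.39 to 1.55 (median 0.94; 1.61 ± 0.35, adjusted p = 0.0031). Replicate 4 was the lowest of the 72 h arrays on both but still above the untreated range. Mpo, myeloperoxidase, stood at 4.91, 5.42, 5.28 and 3.55 against 2.79 to 3.96 (1.41 ± 0.40, adjusted p = 0.022), so replicate 4 overlapped, and its adjusted p was 0.0582, 0.101 and 0.0974 without 72 h replicates 1, 2 and 3. The count of 7 was 4, 2 and 3 without the same arrays. Genes of secondary granules and mature neutrophils were higher in 4 of 24 cases, none lower (median 0.40), against 6.43% of all genes higher. The count of 4 was 2 without 72 h replicate 3. Mmp8, the neutrophil collagenase, read 4.18, 3.60, 3.37 and 2.35 against 1.09 to 2.06 (median 1.69; 1.77 ± 0.34, adjusted p = 0.0011). Fpr2, a formyl peptide receptor, read 6.59, 6.51, 4.98 and 0.82 against -0.20 to 2.42 (median 0.27; 3.85 ± 0.86, adjusted p = 0.0042), so replicate 4 lay inside the untreated range, and with the closest pairs of arrays averaged the adjusted p of Fpr2 was 0.0616. S100a9, a calprotectin subunit, stood at 7.79, 8.22, 7.66 and 5.28 against 5.06 to 6.95 and did not pass (1.11 ± 0.43, adjusted p = 0.089), but passed without replicate 4 (1.76, adjusted p = 0.00268). Mcpt8, a basophil protease measured on 4 untreated arrays, read 2.24, 2.78, 2.83 and 1.52 against 0.63 to 1.15 (1.44 ± 0.26, adjusted p = 0.00081). Of 15 mast cell, basophil and eosinophil genes, Mcpt8 included, 3 were higher and 1 lower (median 0.06). The shares of all genes were 6.43% and 4.15%.

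Of 34 DNA replication genes 9 were higher (median 0.67) and of 41 mitosis genes 5 (median 0.80), with none lower in either list. The share of all genes higher was 6.43%. In the mitosis list 20 genes had every 72 h array above every untreated array, as had 7.01% of all genes. The mean of 38 mitosis genes was 0.25, 0.48, 0.67 and 0.07 on the 72 h arrays and between -0.57 and -0.10 on the untreated arrays. All 72 h arrays lay above the untreated ones, with replicate 3 the highest. Prim2, a primase subunit, read 0.78, 1.20, 2.21 and 0.48 against -0.68 to 0.10 (1.43 ± 0.34, adjusted p = 0.0065). Cdc45, part of the replicative helicase, read -0.35, 0.05, 0.26 and -0.31 against -1.56 to -0.91 (1.12 ± 0.28, adjusted p = 0.0089), and Bub1, a spindle checkpoint kinase, read -0.76, -0.66, -0.03 and -0.94 against -2.23 to -1.61 (1.26 ± 0.33, adjusted p = 0.014). Without 72 h replicate 3 neither Prim2 nor Bub1 passed (adjusted p = 0.0626 and 0.0797), Cdc45 lay just over the threshold (adjusted p = 0.05003) and both list counts were 0, whereas without replicate 4 the counts were 14 and 12. The DNA replication count was also 5 and 4 without untreated replicates 4 and 5 and 3 without 72 h replicate 2, and the mitosis count was 1 or 3 without untreated replicates 3, 4 or 5 or 72 h replicates 1 or 2. Myb, a transcription factor of hematopoietic progenitors, read 1.70, 1.70, 1.82 and 1.87 against 0.56 to 1.10 (median 1.04), with no overlap (0.82 ± 0.14, adjusted p = 0.00022), and another probe gave 0.20 ± 0.20 (adjusted p = 0.55). Myb was the only higher call among 16 stem and progenitor cell genes, with none lower, 8 differences above 0 and a median of -0.02.

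Many erythroid genes were higher at 72 h than at 24 h, the spleen being a site of red cell formation in the mouse. Against 24 h, 19 of 29 erythroid genes and 11 of 18 genes of heme synthesis and erythroid iron were higher, none lower, with medians of 1.32 and 1.45. Against untreated spleen 6 and 3 were higher (medians 0.77 and 0.71), where 6.43% of all genes were higher. For several erythroid and heme genes the difference from untreated spleen depended on the probe. It was 1.17 for Epor, 1.08 for Tfr2, 0.97 for Slc25a38, 0.96 for Cpox and 0.76 for Glrx5. Other probes of these genes gave -0.27, 0.12, -0.07, -0.21 and -0.18. Another probe of Icam4 gave the larger rise, 1.32 against 0.89. The mean of the 29 erythroid genes was 3.96, 4.11, 4.02 and 3.29 on the 72 h arrays, 2.90 to 3.55 in untreated spleen and 2.25 to 2.83 at 24 h. Replicate 4 lay within the untreated range and the other 72 h arrays above it, and all 72 h arrays lay above all 24 h arrays. The control ODN arrays, which share the run of the 72 h arrays, had means of 2.94, 3.87, 3.81 and 3.68. The part of the run in the difference from 24 h was not tested.

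Gata1, the master transcription factor of the lineage, stood at 3.08, 3.28, 3.46 and 2.27 against 1.90 to 2.38 in untreated spleen (median 2.08; 0.91 ± 0.20, adjusted p = 0.0041) and 1.85 ± 0.19 (SD, n = 4) at 24 h (1.18 ± 0.22, adjusted p = 0.0028). Kel, a blood group glycoprotein, read 4.02, 4.15, 4.93 and 2.82 against 1.92 to 3.46 (1.37 ± 0.41, adjusted p = 0.03) and was 2.51 ± 0.45 higher than at 24 h (adjusted p = 0.0015). Urod and Fech, enzymes of heme synthesis, were 2.04 ± 0.38 and 1.98 ± 0.45 higher than at 24 h (adjusted p = 0.0021 and 0.0098). Their differences from untreated spleen, 0.73 ± 0.34 and 0.93 ± 0.41, did not pass (adjusted p = 0.16 and 0.13), and other probes of Fech gave 0.25 ± 0.45 and -0.004 ± 0.53 there. Abcb10, a mitochondrial transporter of erythroid cells, was 2.25 ± 0.41 higher than at 24 h (adjusted p = 0.0015) and 1.11 ± 0.37 higher than in untreated spleen (adjusted p = 0.049). The last value did not pass without any 1 of 72 h replicates 1 to 3 and untreated replicates 3 to 5 (largest adjusted p = 0.171), nor did Kel without 72 h replicates 1 to 3 or untreated replicates 3 or 4 (largest adjusted p = 0.163). The count of 6 ranged from 2 without 72 h replicate 1 or 2 to 13 without replicate 4, with 3 without 72 h replicate 3 or untreated replicates 3 or 4 and 10 without untreated replicate 2. The heme count of 3 ranged from 0 without 72 h replicate 3 to 5 without replicate 4 and was 1 without 72 h replicate 1 or 2 or untreated replicate 3, 4 or 5. Against 24 h the counts of 19 and 11 were lowest without 72 h replicate 3, at 11 and 6. The erythroid count was 12 without 24 h replicate 3, and the heme count was 6 or 7 without 24 h replicate 1 or 3 or 72 h replicate 2.

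**Figure D4:**
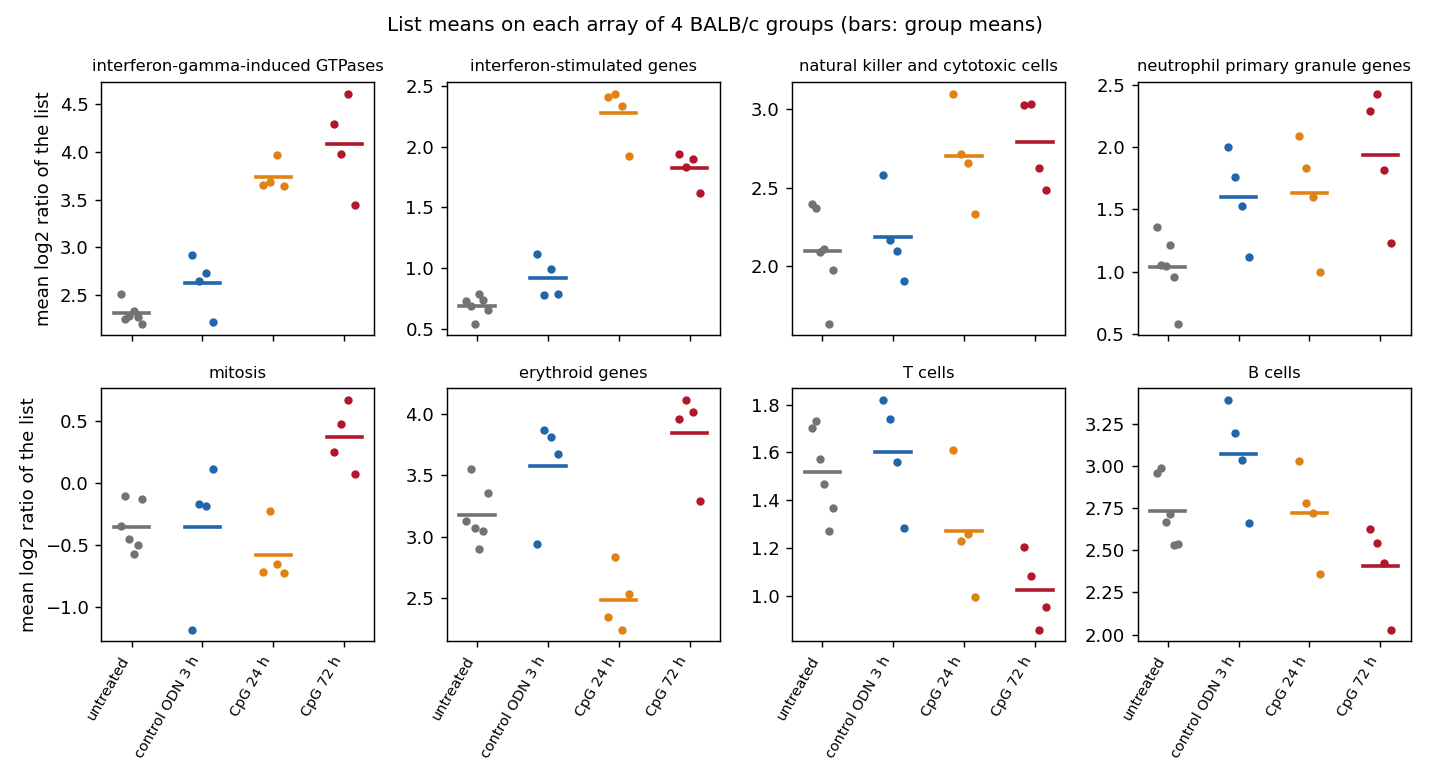
Mean log2 ratio of the measured genes of 8 lists (vertical axis) on each array of the untreated (6), control ODN 3 h (4), CpG 24 h (4) and CpG 72 h (4) groups, with bars at the group means. Erythroid genes are lowest at 24 h and highest at 72 h, mitosis genes are above 0 on each 72 h array, and T cell genes are lowest at 72 h.

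Of 21 measured T cell genes 7 were lower and none higher (median -0.57), against 4.15% of all genes lower, with 7 or 8 lower when 1 array was left out and 11 under quantile normalization. Cd28, the co-stimulatory receptor, read 0.33, 0.35, -0.50 and 0.62 against 1.06 to 1.54 in untreated spleen (median 1.25), 2.11-fold lower (-1.07 ± 0.18, adjusted p = 0.00022). Cd3e, a chain of the T cell receptor complex, read 0.28, 0.26, -0.04 and 0.18 against 0.82 to 1.55 (median 1.04), 1.92-fold lower (-0.94 ± 0.16, adjusted p = 0.00029). Lef1, a transcription factor of naive T cells, read 0.06, -0.05, -0.50 and 0.05 against 0.57 to 1.23 (median 0.90), 2.03-fold lower (-1.02 ± 0.19, adjusted p = 0.00071). The groups did not overlap on any of these genes, and replicate 3 was the lowest on each. Over all genes 4.25% had every 72 h array below every untreated array. Cd6, a lymphocyte adhesion receptor, changed by -0.86 ± 0.18 and Cd3g by -0.78 ± 0.18 (adjusted p = 0.0024 and 0.0058), with another probe of Cd6 at 0.10 ± 0.17 (adjusted p = 0.76). Thy1 and Bcl11b were the remaining members that fell, while Cd4, Cd8a, Cd3d and Zap70 were among the 14 that did not pass. Another probe of Thy1 gave -0.36 ± 0.19 (adjusted p = 0.24), against -0.82 for the probe used. The mean of 20 T cell genes was 1.20, 1.09, 0.86 and 0.96 on the 72 h arrays and 1.27 to 1.73 in untreated spleen. On the same arrays the erythroid mean was above the untreated range on replicates 1 to 3 and inside it on replicate 4, and its part in the lower T cell values was not tested.

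Of 25 B cell genes 4 were lower and none higher (median -0.27), or 8 lower under quantile normalization. Fcer2a, the low-affinity IgE receptor of follicular B cells, read 1.27, 0.86, -0.20 and 0.91 against 1.49 to 3.00 (median 1.76), 2.53-fold lower (-1.34 ± 0.32, adjusted p = 0.0078), with another probe at -0.33 ± 0.23 (adjusted p = 0.38). Pax5, the transcription factor of B cell identity, read 1.49, 1.31, 1.44 and 1.10 against 1.68 to 2.40 (median 2.17; -0.76 ± 0.20, adjusted p = 0.017). The groups did not overlap on either, but Fcer2a did not pass without 72 h replicate 3 (adjusted p = 0.0673) nor Pax5 without replicate 2 (adjusted p = 0.052), and the count of 4 was 2 without either array. Cd79b lay between 2.26 and 3.40 at 72 h against 3.32 to 3.66 and did not pass (-0.69 ± 0.28, adjusted p = 0.11). Another probe of Cd79b gave -1.19 ± 0.24 (adjusted p = 0.0021). The gene passed with quantile normalization (-1.07, adjusted p = 0.0015) and with the mean of its probes (-0.94, adjusted p = 0.0039). It also passed with array weights, with arrays scaled to the same spread and with only the 10 arrays fitted (largest adjusted p = 0.035). Ighd, the heavy chain of IgD on mature B cells, was measured on 3 of the 72 h arrays at 5.14, 0.03 and 4.93, in replicates 2, 3 and 4, against 5.06 to 6.13. Its difference of -2.42 ± 0.62 (adjusted p = 0.013) was -0.75 without replicate 3 (adjusted p = 0.21). Cxcr4, the receptor of Cxcl12, read 1.87, 2.00, 1.11 and 2.02 against 2.60 to 3.26 (median 2.93), 2.28-fold lower with no overlap (-1.19 ± 0.26, adjusted p = 0.0035). Among 18 plasma cell and immunoglobulin genes 2 were higher and 1 lower (median 0.24), against 6.43% and 4.15% of all genes. The lower gene was Cd28 and 1 of the higher was Ly6c1, both described above under other cell types.

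**Figure D5:**
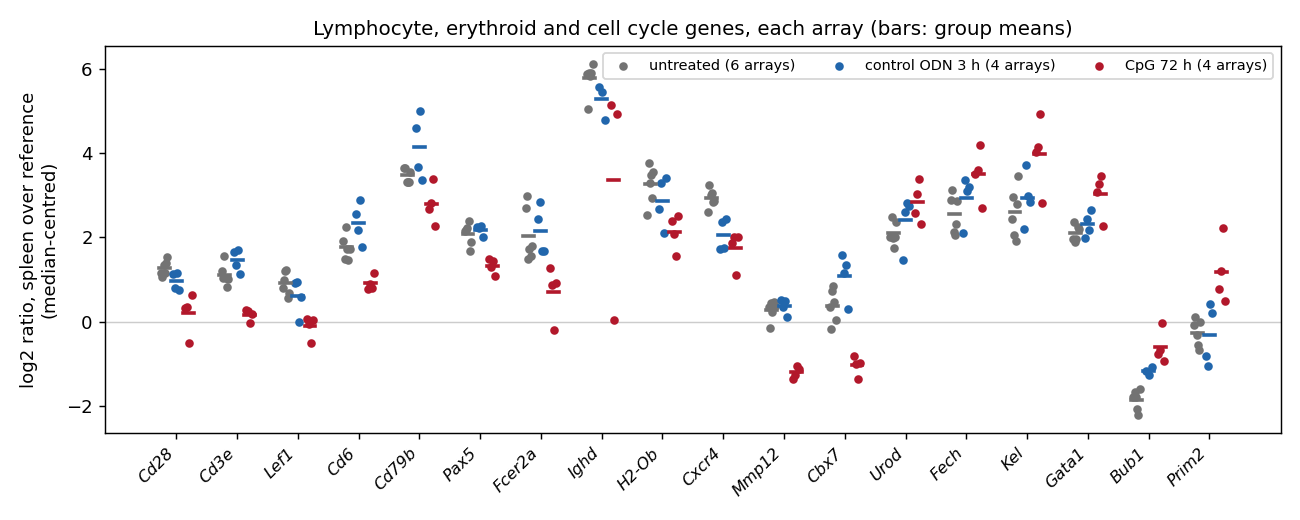
Log2 ratio of spleen over reference (vertical axis, median-centred) of 18 lymphocyte, erythroid, cell cycle and other genes, for the 6 untreated, 4 control ODN 3 h and 4 CpG 72 h arrays, with bars at the group means. Cd28, Cd3e, Lef1, Cbx7 and Mmp12 have all 72 h arrays below all untreated arrays, and a single 72 h array accounts for the low mean of Ighd.

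Of 25 inflammatory cytokine and receptor genes 6 were higher, Il18 and Il18bp among them, and 1 lower (median 0.06). The shares of all genes were 6.43% and 4.15%. The 6 were 3 without untreated replicate 4 or 5 or 72 h replicate 1 or 2. The lower call was 0 without untreated replicate 5 or 6 or 72 h replicate 1 or 2, and 2 without untreated replicate 2. Tnf, Il12b and Ifng, chosen after their values were seen, did not pass at 72 h. Tnf had group means of 0.58 ± 0.11 (SD, n = 6) in untreated spleen, 3.87 ± 1.21 at 1 h, 0.92 ± 0.27 at 24 h and 0.66 ± 0.16 at 72 h (n = 4 each), and the 72 h difference of 0.08 ± 0.36 (95% interval -0.65 to 0.81) did not pass (adjusted p = 0.91). Il12b, a subunit of interleukin 12, had means of 0.39 ± 0.22 (n = 6), 4.06 ± 0.30 at 3 h (n = 4) and 0.22 ± 0.12 at 72 h, with values on 2 arrays (-0.17 ± 0.23, 95% interval -0.65 to 0.30, adjusted p = 0.66). Ifng read 2.43, 2.21, 2.33 and 1.46 against 1.68 to 2.20 and did not pass (0.19 ± 0.22, 95% interval -0.26 to 0.63, adjusted p = 0.61), with the opposite sign under quantile normalization (-0.07). Among 28 genes of NF-kB feedback and the immediate early response 2 were higher and 2 lower (median -0.33), near the shares over all genes of 6.43% and 4.15%. Nfkbia, the inhibitor that NF-kB induces, read -0.29, -0.41, -0.45 and -0.14 against 0.15 to 1.17 (median 0.44), 1.90-fold lower with no overlap (-0.93 ± 0.19, adjusted p = 0.0021). Jun, a subunit of AP-1, read -1.73, -2.01, -1.40 and -1.15 against -1.21 to -0.10 (median -0.63), 1.99-fold lower with replicate 4 inside the untreated range (-0.99 ± 0.22, adjusted p = 0.0043). The 2 higher calls in this list were 0 without untreated replicates 5 or 6 or 72 h replicates 1 or 2 and 1 without 72 h replicate 3 or untreated replicates 2, 3 or 4, and the 2 lower calls were 4 without 72 h replicate 4.

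Mmp12, macrophage elastase, read -1.37, -1.26, -1.05 and -1.12 against -0.15 to 0.47 (median 0.36), 2.80-fold lower (-1.49 ± 0.20, adjusted p = 7.7e-06). Retreg1, a receptor for the autophagy of endoplasmic reticulum, read -0.95, -0.83, -0.92 and -0.96 against 0.13 to 0.74 (median 0.32; -1.28 ± 0.19, adjusted p = 4.3e-05). Cbx7, a Polycomb subunit, read -0.82, -1.01, -1.36 and -0.98 against -0.17 to 0.85 (median 0.41), 2.68-fold lower (-1.42 ± 0.25, adjusted p = 0.00036). All 72 h arrays lay below all untreated arrays on these genes. Crisp3, a secreted cysteine-rich protein, fell by 1.58 ± 0.27 on the log2 scale on the 3 arrays of 72 h with a value (adjusted p = 0.00029). Respiratory chain genes were higher in 8 of 33 cases (median 0.41), against 6.43% of all genes higher. They were led by Cox5a, a cytochrome oxidase subunit, at 0.49, 0.55, 1.10 and 0.07 against -0.57 to -0.22 (0.91 ± 0.15, adjusted p = 0.00019). The count of 8 was 4 without 72 h replicate 2 or 3. Selp, the platelet and endothelial P-selectin, read 1.88, 1.56, 2.23 and 1.77 against 0.13 to 1.36 (median 0.69; 1.18 ± 0.22, adjusted p = 0.00053). Of 32 ribosomal protein genes 1 was higher and none lower (median -0.004).

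The control ODN arrays are the only others in the same run of array numbers, and they differ from the 72 h arrays in both the ODN and the time. Against untreated spleen 216 of 15263 genes (1.42%) were called in them, 160 higher (1.05%) and 56 lower (0.367%), and against them 2022 genes (13.2%) were called at 72 h, 761 higher (4.99%) and 1261 lower (8.26%). The comparisons share arrays, so their values are set side by side. GTPases had a median of 1.66 against the control ODN arrays with 14 of 15 higher, and 0.34 in the control ODN arrays against untreated spleen. Interferon-stimulated genes had medians of 0.80, with 21 of 38 higher, and 0.25. Gbp2 was 2.42 ± 0.28 and Ifit1 1.97 ± 0.27 above the control ODN arrays (adjusted p = 9.3e-07 and 1.3e-05). Apol10a was 3.89 ± 0.49 and Gzmb 1.70 ± 0.34 above them (adjusted p = 3.7e-06 and 0.0014), and Cd5l 2.37 ± 0.48 (adjusted p = 0.0019). T and B cell genes were lower than in the control ODN arrays in 9 of 21 and 9 of 25 cases (medians -0.71 and -0.70), while their medians in the control ODN arrays against untreated spleen were 0.21 and 0.30. Cd3e was 1.46 on average in the control ODN arrays and 1.29 ± 0.18 lower at 72 h (adjusted p = 1.7e-05), and Cd79b was 4.16 there and 1.37 ± 0.31 lower at 72 h (adjusted p = 0.0043). Cbx7 differed by -2.13 ± 0.27 and Mmp12 by -1.56 ± 0.22 (adjusted p = 6.4e-06 and 2.2e-05).

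For several lists the control ODN arrays were themselves higher than untreated spleen, and for some of these the 72 h arrays lay near them. Monocyte and macrophage genes had medians of 0.52 in 72 h against untreated, 0.44 in control ODN against untreated and 0.00 in 72 h against control ODN. Red pulp and marginal zone macrophage genes had 0.33, 0.63 and -0.14, genes of secondary granules and mature neutrophils 0.40, 0.87 and -0.22, and platelet genes 0.58, 0.73 and -0.13. Complement genes had 0.40, 0.37 and 0.11. Erythroid genes had 0.77, 0.36 and 0.33. Genes of neutrophil primary granules had 0.97, 0.61 and 0.52, with 3 of 10 higher against control ODN. The Ifi200, Schlafen and Ms4a families had 0.62, 0.50 and 0.34, with 5 of 18 higher. Against control ODN Ctsg passed at 1.47 (adjusted p = 0.013) and Prtn3 at 1.12 (adjusted p = 0.047). With 1 array left out their largest adjusted p-values were 0.0563 and 0.124. Of 1616 genes called against untreated spleen, 738 passed against control ODN in the same direction (404 of 982 higher, 334 of 634 lower). Named genes were chosen partly by smallest p, and of the 83 that passed against untreated spleen, 22 did not pass against control ODN. Among them were the erythroid genes Kel (1.04 ± 0.45, adjusted p = 0.12) and Abcb10 (1.16 ± 0.41, adjusted p = 0.054), the receptors Tlr7, Tlr8 and Tlr13 (adjusted p = 0.61, 0.092 and 0.43), Spic (0.24 ± 0.26, adjusted p = 0.58), C6 (0.74 ± 0.31, adjusted p = 0.1) and Fpr2 (2.61 ± 0.94, adjusted p = 0.061). Others were Mpo (0.63 ± 0.44, adjusted p = 0.36), Mmp8 (-0.32 ± 0.38, adjusted p = 0.62), C1qc (0.62 ± 0.27, adjusted p = 0.12), Siglec1 (0.09 ± 0.34, adjusted p = 0.9), Selp (0.39 ± 0.24, adjusted p = 0.29) and Cxcr4 (-0.32 ± 0.28, adjusted p = 0.5). The rest were Bub1, Cd3g, Psmb8, Ms4a4d, Ccl4, H2-Ob, Ighd and Traf6 (adjusted p = 0.35, 0.19, 0.1, 0.064, 0.11, 0.12, 0.071 and 0.31). The part of the array run, the ODN and the 3 h time in these values was not tested. T cells gave 5 lower genes without control ODN replicate 1, and the count of 2022 was 980 and 1085 without control ODN replicates 1 and 3.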

How the data were processed

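Whole-spleen RNA was measured on 2-colour oligonucleotide arrays, spleen in Cy5 and the reference pool in Cy3, with 1 array per sample. Per the series' design text, the authors corrected the background, removed spots marked as bad and spots with both signals under 100, applied lowess normalization and deposited log2 ratios of spleen over reference. For the genome build, nothing is given in the sources used here. Depth has no meaning for these arrays, and the number of arrays limits the precision.

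From the deposited log2 ratios each array was centred on its median. Probes were named through the platform annotation and RefSeq gene identifiers. Of 36607 probes 26926 had 1 symbol, 203 had several and 9478 had none, and a gene was represented by its probe with most values. Genes with a value on over 70% of the 34 BALB/c arrays were fitted with limma 3.58.1 (R 4.3.3, statmod 1.5.0) as 8 group means, with eBayes and Benjamini-Hochberg adjustment at 0.05. The fit was checked on simulated data. Missing values were left missing.

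The genes and lists were chosen with earlier results of these data known. Named genes are the 20 largest called rises and falls with values on at least 3 arrays of 72 h and 4 untreated arrays, and up to 8 members of each list by smallest p. Another probe is given where it differs by over 1 or shows under 0.5 of the change. The alternatives are reported in the closing section.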

Additional observations from a re-analysis of the deposited data

Results flagged for a closer look

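Among 179 groups of values of the named genes, 14 held an array apart from the rest of its group by Dixon's criterion, which chance gives in about 1 in 20 groups. Of these, 6 were CpG 72 h replicate 4, in each case the lowest of its group. It read 2.16 for Irgm2 (others 3.85 to 4.08), 1.94 for Oasl2 (2.41 to 2.50), 4.07 for Cxcl9 (6.52 to 6.82), 2.26 for Fcer1g (2.68 to 2.75), 1.43 for Tlr13 (2.69 to 2.92) and 4.89 for Spic (5.72 to 5.82). CpG 72 h replicate 3 stood apart for Erap1, at 2.32 (1.60 to 1.68), and for Cxcr4, at 1.11 (1.87 to 2.02). Among untreated arrays, replicate 2 stood apart for Psmb8 at 1.53 (1.71 to 1.78), Ighd at 5.06 (5.83 to 6.13) and Tlr9 at 0.55 (0.13 to 0.27). Replicate 1 did so for Erap1 at 1.35 (0.67 to 0.90), and replicate 5 for Apol10a at 0.02 (1.00 to 1.58) and Myb at 0.56 (0.91 to 1.10).

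For 19 named genes the change from untreated spleen differed between 72 h and 24 h by limma's test of the difference at an adjusted p under 0.05. The 72 h change exceeded the 24 h change by 4.76 for Apol10a, 2.51 for Kel, 2.46 for Ubd, 2.31 for C6, 2.25 for Abcb10, 2.04 for Urod, 1.98 for Fech, 1.18 for Gata1, 1.14 for Mcpt8 and 0.76 for Klra3. It was lower for interferon-stimulated and related genes, with differences of -1.53 for Ifit3, -1.05 for Phf11d, -0.98 for Ms4a6d and -0.85 for Bst2. The difference was also negative for Ighd (-2.70), Il12b (-1.29), Cbx7 (-1.03), Pax5 (-0.82) and Cd6 (-0.73). With 1 array left out, Ms4a6d, Klra3, Mcpt8, Pax5, Ighd, Cd6, Il12b and Cbx7 each missed the threshold in at least 1 case, with largest adjusted p-values of 0.0844, 0.071, 0.0742, 0.1, 0.156, 0.0976, 0.0689 and 0.112.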

How the results depend on the processing

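The 1616 genes called at 72 h became 5667 with array weights (3157 higher, 2510 lower), 331 with a 2-fold minimum (262 and 69), 1949 with quantile normalization (979 and 970) and 555 with the closest array pairs averaged (386 and 169), an alternative chosen after seeing the data. The cause was not tested, apart from the 2-fold minimum, which is stricter by construction. Leaving out 1 array gave 678 to 2546 genes (419 to 1527 higher, 258 to 1019 lower), 202 to 699 against 24 h, where all arrays gave 508, and 980 to 2750 against control ODN, where all gave 2022. Array weights gave 1713 and 3889 for the last comparisons. Replicate numbers were not taken as pairs, since deviations of same-numbered 72 h and untreated arrays correlated at 0.18, 0.32, 0.03 and 0.17 and not every pair was over 0.1. The replicate block gave 989 genes (591 higher, 398 lower), without Mpo, Bub1, Abcb10, Ighd and Tlr8. Of the 83 named genes that passed, 66 passed in every setting other than the 2-fold minimum, 17 missed it in at least 1, and none changed sign. Named genes were chosen partly by largest change or smallest p in these same data, which favours such an outcome. Of all 1616 calls, 633 remained without 72 h replicate 3 and 555 with the closest array pairs averaged. Tlr9 became 0.2009 with the mean of its probes and Ifng -0.07183 with quantile normalization, against -0.13 and 0.19, and neither gene had passed. Cd79b, S100a9, Urod and Fech had not passed either but did so in some settings, each of them with array weights. Of 58 gene list counts over 0, 3 stayed within 1.5 times in every setting but the 2-fold minimum.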
